A study of Mus musculus with 185 samples.

Results

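The 39 genes described here build and control the non-muscle actin cytoskeleton of the cell and couple it to the membrane and to cell adhesions. They were listed by name for what their proteins do, at a time when earlier results of these data were known, and the deposited table of 17171 genes holds each of them. A gene was kept for the comparisons when it was above 5 TPM (transcript abundance per length, scaled to the same total in every cell) in at least 20% of all cells, which 5039 genes were. Of the 39 members 38 were kept, and Arpc3, at 25 cells, was not. The members fall into 9 roles: the actins themselves, monomer-binding proteins, filament turnover, filament capping, the Arp2/3 complex, membrane linkers, crosslinkers and adhesion proteins, non-muscle myosin II and tropomyosins.

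Actin monomers polymerise into filaments that profilin and thymosins feed or hold back, that the Arp2/3 complex branches, that capping protein stops and that cofilin severs. Bundled by alpha-actinin, coated by tropomyosin and pulled by non-muscle myosin II, filaments form stress fibres that end at adhesions built on talin, vinculin and zyxin. Fibroblasts of an injured heart spread, migrate and contract the scar with this machinery, and the question put to the table was how its RNA differed between resident and activated cells.

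The study profiled single interstitial cells of adult mouse hearts, lineage-traced fibroblasts among them, on the Fluidigm C1 microfluidic system with SMARTer amplification. The cells came in 4 captures that the cell names call Jul24, Jul29, Nov4 and Nov11. Its lineage tracing used MerCreMer, a Cre recombinase switched on by tamoxifen in the chow, knocked into 1 copy of Postn (Postn MCM/+) or of Tcf21 (Tcf21 MCM/+), together with a Rosa26 reporter (R26-eGFP) that stays lit in descendants. Activated cells came from the infarct region a week after permanent ligation of the left coronary artery, and resident cells came from hearts described as uninjured or sham-operated, although a figure legend takes control interstitial cells from a region remote from the infarct. Which of these holds for the resident Postn-negative cells is unclear, and their labels say only resident. Endothelial (CD31+), blood (CD45+) and dead cells were sorted out beforehand.

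All mice were C57BL/6 backcrosses of about 5 months. The resident classes, all of capture Jul24, were 17 Tcf21-traced cells, 12 Postn-negative cells, 3 cells positive for Postn and Tcf21 and 1 Postn-positive cell. The activated classes were 24 Postn-negative and 27 Postn-traced cells of Jul29, 44 Tcf21-traced cells of Nov4, 29 untraced scar cells of Nov11 and 28 Postn-positive cells spread over Jul29 (6), Nov4 (19) and Nov11 (3). Postn-positive here means that Postn RNA was found in a cell without the tracer. The labels name traced cells by Postn in Jul29 and by Tcf21 in Nov4, so being untraced does not mean the same in each capture, and tamoxifen marks only cells whose locus was active while it was given. A figure legend gives 3 mice in each group, but cells of several mice could share a capture and no label names the mouse. Each class therefore counts as 1 sample, no test was made, and every SD below is a spread between cells. The file gives no read counts and the authors state only an average depth, so the sequencing depth of each cell is unknown, and 95% intervals of shares (exact, Clopper-Pearson) cover counting error only.

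Postn RNA followed the labels more closely than Tcf21 RNA, though the Postn labels rest in part on Postn RNA itself. On the log2(TPM+1) scale used throughout, Postn had its highest value among activated Postn-negative cells at 4.41 and its lowest among Postn-traced cells at 9.60. Those classes did not overlap, which for the Postn-negative label is no check, since it rests on Postn RNA. The label of the traced cells also names them Postn-positive. At the level of 5 TPM used here 3 of 24 activated and 3 of 12 resident Postn-negative cells did hold Postn. Among activated Tcf21-traced cells 39 of 44 held Postn above 5 TPM. Tcf21 RNA did not follow the tracer closely. It was above 5 TPM in 9 of 17 resident Tcf21-traced cells, 26 of 44 activated ones and 19 of 24 activated Postn-negative cells. At least 3 of 8 fibroblast markers were found in 11 of 12 resident Postn-negative cells, 28 of 29 scar cells and every cell of the other 7 classes.

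Beta-actin RNA was found throughout. Actb, the main cytoplasmic actin, was above 5 TPM in every cell of the table, as were 6 of the 5039 genes kept, and its class means lay between 12.43 and 13.69, with single cells from 10.67 to 16.02. Members were detected more widely than genes at large: the median member was above 5 TPM in 72.4% of cells, against 38.4% for the median gene kept. 9 members passed that level in at least 90% of cells, namely Actb, Actg1, Tmsb4x, Tmsb10, Myl6, Myh9, Myl12a, Cfl1 and Pfn1, as did 263 of the 5039 genes kept. At the other end Arpc3 reached it in 25 cells, Cotl1 in 37, Flnc in 38 and Ezr in 41. In sum the members held a median of 2.07% of all TPM in resident Postn-negative cells, 2.28% in resident Tcf21-traced cells, 2.67% in activated Postn-negative cells, 2.51% in Postn-traced cells and 2.95% in activated Tcf21-traced cells. The ranges of single cells overlapped between these classes.

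**Figure D1:**
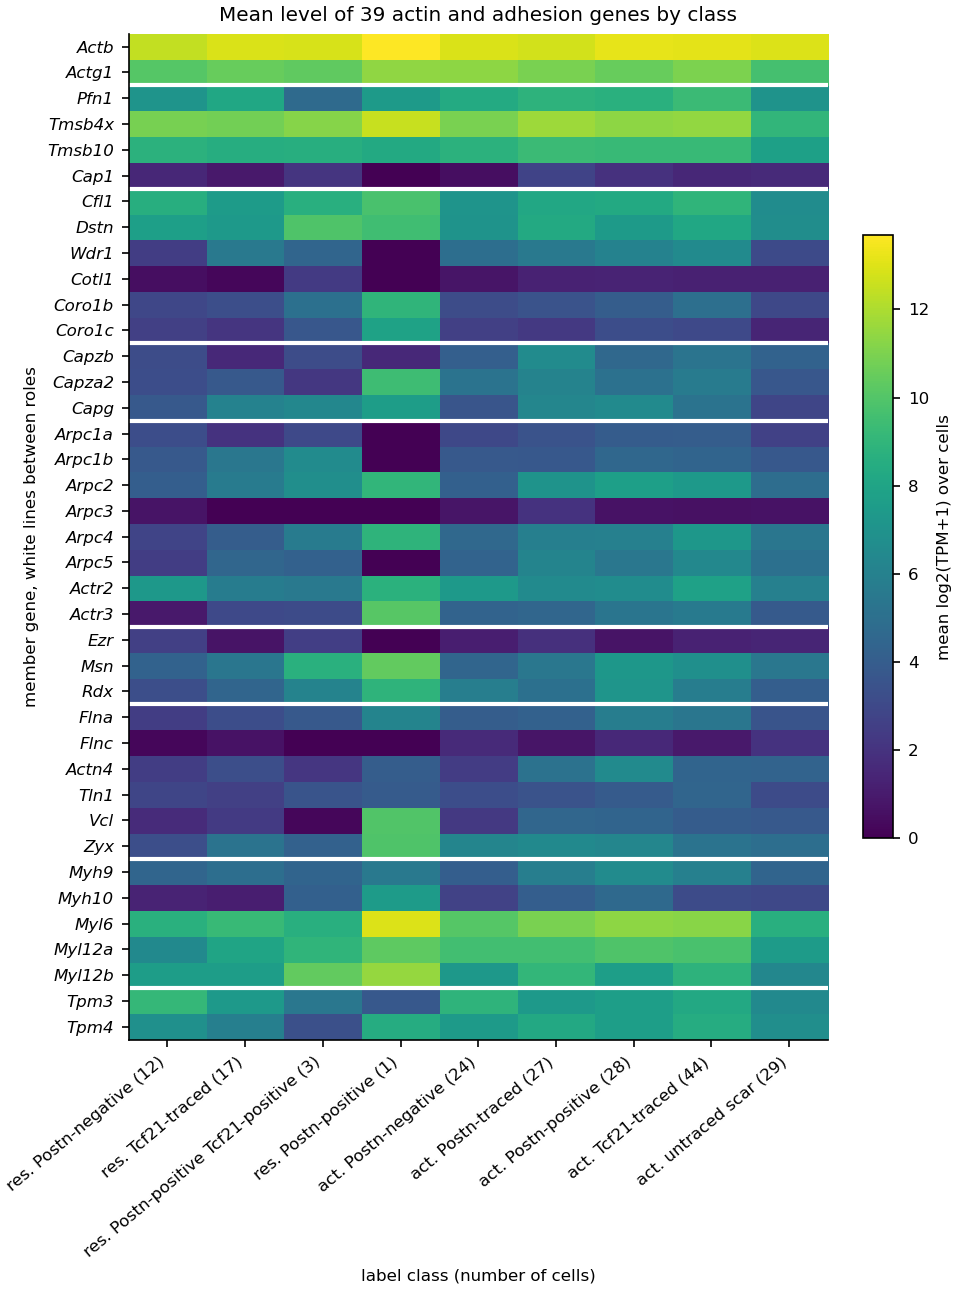
Colour gives the mean log2(TPM+1) of each of the 39 members (rows, in order of role) over the cells of each of the 9 classes (columns, with cell numbers). Actb is bright in every class, with means from 12.43 to 13.69, while Cap1, Cotl1, Arpc3, Ezr and Flnc stay dark in most classes. The column of the resident Postn-positive class is a single cell.

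How many genes a cell showed went along with the level of the members within classes, and less strictly between them. The median number of genes above 5 TPM was 2092 in resident Postn-negative cells, 2264 in resident Tcf21-traced cells and 2342 in activated Postn-negative cells. It was 3643 in Postn-traced cells and 3134 in activated Tcf21-traced cells. The median per-cell mean of the members was 4.77, 4.98 and 5.24 in the first 3 of these classes and 6.07 and 6.50 in the other 2. The order was not strict, since scar cells, with a median of 3177 genes, stood at 5.34. Within classes the mean of the 38 members and the gene number rose together, with Spearman's rho of 0.73 over 27 Postn-traced cells, 0.84 over 44 activated Tcf21-traced cells and 0.40 over 24 activated Postn-negative cells. The points are cells of 1 capture and share its chemistry. What share of each member's difference goes with gene number was not tested. Values for cells of like gene number (2000 to 3000 genes, a window chosen after the data were seen) are given with many of the results below. The window keeps only 5 of the 27 Postn-traced cells, whose gene numbers run from 2155 to 4541. The paper reports more transcripts in activated than in quiescent resident populations. Whether gene number is itself part of activation was not tested, so values in the window are not corrected ones.

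**Figure D2:**
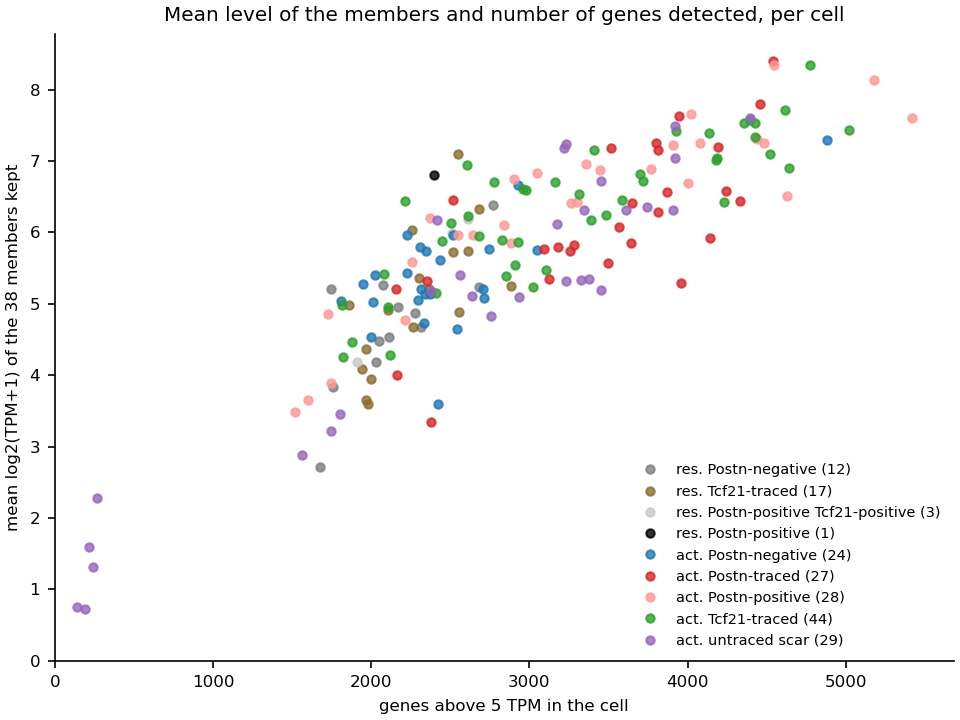
Each point is a cell, with its number of genes above 5 TPM on the horizontal axis and the mean log2(TPM+1) of the 38 members kept on the vertical axis, coloured by class. The members' mean climbs with gene number in each class of at least 12 cells, and 5 untraced scar cells with 141 to 264 genes sit apart at the lower left.

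In the infarct itself, Postn-traced cells had higher mean levels than Postn-negative cells of the same capture for 30 of 38 members, as for 76.7% of all genes kept. The median member difference, Postn-traced minus Postn-negative class mean, was 0.68, and the median of all genes kept was 0.73. 13 members (34.2%) were more than 1 log2 unit higher and 1 (2.63%) more than 1 lower, where 39.6% of all genes kept were higher and 5.40% lower by that much. By these means the members moved no further as a group than genes at large. Other averages gave other values. With medians over cells the member median was 0.69 and that of all genes 0.31. There 17 members were more than 1 higher, against 39.5% of all genes. A gene at 0 in most cells of both classes differs by 0 in that setting. Over all cells the median gene kept was above 5 TPM in 38.4% and the median member in 72.4%. The gap of medians over cells therefore cannot show whether members moved further. Over genes above 5 TPM in at least 50% of cells, means gave 0.77 for 31 members and 0.83 for all genes. Member medians were -0.03 (all genes 0.02) from means on the linear scale and -0.28 (all genes -0.22) at like gene number. At like gene number 7 members were higher and 11 lower against 21.5% and 30.4% of all genes, and 5 Postn-traced cells met 20 Postn-negative ones.

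By means of log2 values over all cells, activated against resident Tcf21-traced cells gave the widest gap between the members and other genes. 35 of 38 members were higher in the activated cells (78.5% of all genes kept were), the median member difference was 1.29 beside 0.84 for all genes kept, and 25 members (65.8%) were more than 1 higher against 44.1% of genes. Arpc1b was the 1 member more than 1 lower, against 5.54% of genes. Among cells with 2000 to 3000 genes, 17 activated and 11 resident, the member median was 0.19 and that of all genes 0.13, so the excess of 0.46 became 0.06. From means on the linear scale they were 0.35 and 0.10, but only 3 members were more than 1 higher, against 26.6% of all genes kept, so by that count the members stood below genes at large. With medians over cells they were 1.24 and 0.22. There a gene at 0 in most cells of both classes differs by 0. Over all cells the median gene kept was above 5 TPM in 38.4% and the median member in 72.4%. The gap of medians over cells therefore cannot show whether members moved further. Over genes above 5 TPM in at least 50% of cells, means gave 1.42 for 31 members and 1.10 for all genes. The classes also came from different captures, and capture and activation cannot be told apart here. At like gene number the widest gap of any comparison was instead 0.35, for resident Tcf21-traced minus resident Postn-negative cells.

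Postn-traced cells against resident Tcf21-traced cells share 27 cells with the comparison inside the infarct and 17 with the one before. 19 members were more than 1 higher and Arpc1b was lower, with a member median of 0.98 beside 0.93, and 47.3% and 5.42% of all genes kept passed the same cutoffs. At like gene number (5 against 11 cells) the member median turned to -0.58, with 5 members higher and 16 lower against 22.1% and 31.8% of all genes, and that of all genes to -0.26.

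Among Postn-negative cells, activated minus resident, 14 members were more than 1 higher and 3 lower, and the medians of members and of all genes were both 0.35. The shares over all genes kept were 26.3% and 10.3%. These classes had the closest gene numbers of the activated-resident comparisons. At like gene number (20 against 9 cells) the member median was 0.25 and that of all genes 0.15. There 13 members were higher and 8 lower, against 23.1% and 16.7% of all genes. On the linear scale 8 members were higher and 4 lower, against 33.1% and 19.7%, so by the higher count the members stood below genes at large.

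Within capture Nov4, Tcf21-traced minus untraced Postn-positive cells, 6 members (15.8%) were more than 1 lower and 1 higher, against 10.7% and 8.89% of all genes kept, with medians of -0.26 and -0.03. Within the resident capture, Tcf21-traced minus Postn-negative cells, 12 members were higher and 6 lower, against 21.1% and 13.8%, with medians of 0.46 and 0.18. Several of these comparisons use the same cells, so they are given side by side. Subtracting from each cell the median log2 of its own genes above 5 TPM moved the all-gene median inside the infarct from 0.73 to 1.25 and that of the Tcf21-traced comparison from 0.84 to 1.29. This step adds the same amount to every gene of a comparison, so it cannot change where the members stand among other genes.

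**Figure D3:**
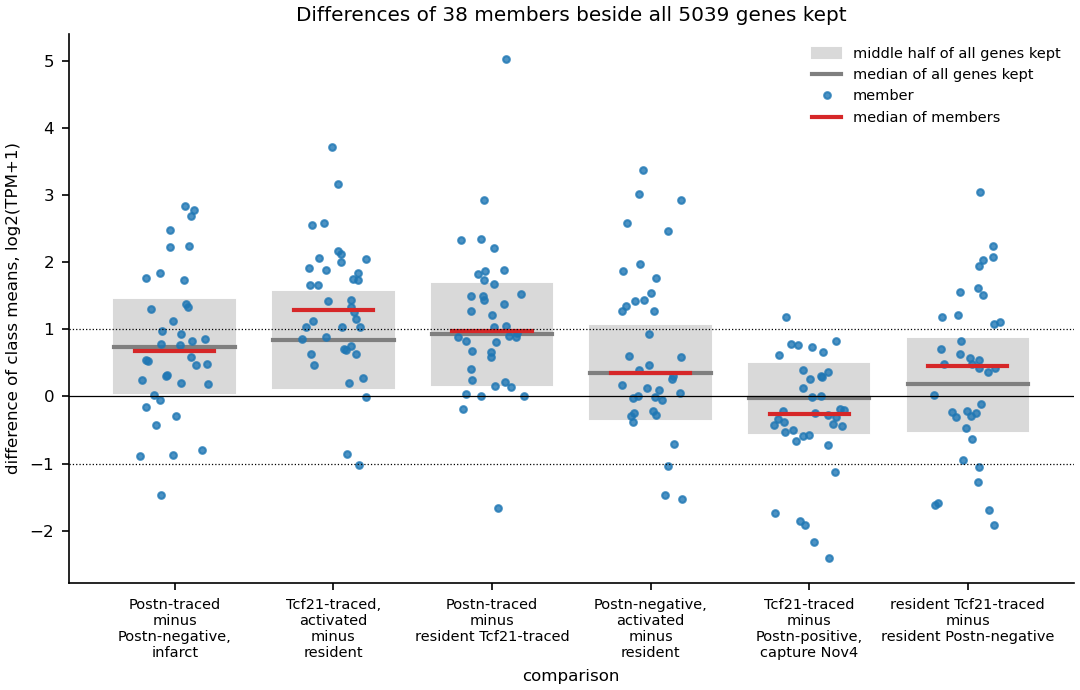
Blue points are the 38 members kept, red lines their medians, grey boxes the middle 50% of all 5039 genes kept and grey lines the medians of those genes, for each of the 6 comparisons on the horizontal axis. The vertical axis is the difference of class means in log2(TPM+1), with dotted lines at 1 and -1. Many points fall outside the grey range, the red line lies clearly above the grey one for Tcf21-traced cells (1.29 against 0.84), and the highest point is Capzb at 5.03.

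The actins had close class means inside the infarct, though Actg1 did not at like gene number. Actb ran from 10.69 through a median of 12.85 to 13.93 over the 27 Postn-traced cells and from 11.92 through 12.89 to 13.73 over the 24 Postn-negative cells. Actg1, the gamma form of cytoplasmic actin, ran from 5.20 through 11.22 to 12.94 and from 4.22 through 11.64 to 13.20. For both genes the classes overlapped almost fully, and the differences of means were -0.15 and -0.43. At like gene number they were -0.46 and -2.06, and Actg1 was also at -1.57 there in Postn-traced minus resident Tcf21-traced cells, against 0.41 over all cells. Activated minus resident Tcf21-traced cells gave 0.20 for Actb and 0.47 for Actg1, each below the all-gene median (0.01 and -0.36 at like gene number). Among Postn-negative cells Actg1 was 1.27 higher in the activated class (0.51 at like gene number, 0.81 on the linear scale). Actb stood above Actg1 in 181 cells of all classes, 4 short of the total, by a median of 1.70 log2 units of TPM, a scale set per length on which levels of different genes can be compared. The actin coding sequences are close relatives with many processed copies in the genome, and how reads were shared between them is uncertain.

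Actin genes and many of their partners are known targets of serum response factor, which binds a sequence called the CArG box, so the promoters of the members were searched for it. Promoters of 300 bases, 250 before to 50 after the start site, came from RefSeq (GRCm38.p6, the build the deposited values call mm10) for 36 of the 39 members, as 42 promoters. A CArG box, searched on both strands, on which its pattern reads alike, was present in 4 of these 42 (9.52%) and in 535 of all 32851 promoters (1.63%). The 4 belong to Actg1 (chr11:120348446-120348745, minus strand), Vcl (chr14:20929148-20929447, plus strand), Myl6 (chr10:128492960-128493259, minus strand) and Arpc4 (chr6:113377863-113378162, plus strand). Each is written 5′ to 3′ in lower case, and capitals mark the 10 bases of the box.
Actg1: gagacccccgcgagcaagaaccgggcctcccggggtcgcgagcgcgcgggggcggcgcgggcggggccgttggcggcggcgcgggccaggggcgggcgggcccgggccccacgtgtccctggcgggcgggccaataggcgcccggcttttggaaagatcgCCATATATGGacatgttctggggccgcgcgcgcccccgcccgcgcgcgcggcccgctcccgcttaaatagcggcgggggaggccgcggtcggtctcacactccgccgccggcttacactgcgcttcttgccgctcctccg
Vcl: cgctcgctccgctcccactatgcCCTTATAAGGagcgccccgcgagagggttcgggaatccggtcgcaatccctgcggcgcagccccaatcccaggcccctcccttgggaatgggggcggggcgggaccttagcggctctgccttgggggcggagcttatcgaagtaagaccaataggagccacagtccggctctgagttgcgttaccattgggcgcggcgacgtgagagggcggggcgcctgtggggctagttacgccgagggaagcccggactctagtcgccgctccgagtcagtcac
Myl6: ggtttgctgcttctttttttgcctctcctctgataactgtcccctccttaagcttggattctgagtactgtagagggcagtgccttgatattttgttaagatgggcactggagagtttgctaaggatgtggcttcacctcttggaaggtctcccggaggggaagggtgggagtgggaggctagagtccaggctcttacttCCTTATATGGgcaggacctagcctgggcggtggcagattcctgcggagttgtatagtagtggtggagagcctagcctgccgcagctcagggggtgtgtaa
Arpc4: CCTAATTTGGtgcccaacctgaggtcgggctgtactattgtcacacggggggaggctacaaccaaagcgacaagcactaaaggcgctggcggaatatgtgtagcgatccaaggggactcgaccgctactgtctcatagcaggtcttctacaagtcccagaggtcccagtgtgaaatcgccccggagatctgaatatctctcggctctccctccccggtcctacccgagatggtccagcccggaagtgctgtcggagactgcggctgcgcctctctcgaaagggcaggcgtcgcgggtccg
The box starts 90 bases before the start site in Actg1, 227 in Vcl, 50 in Myl6 and 250 in Arpc4. A match is a description of the letters and no measure of binding. In lists described below, a box was present in 3 of 71 promoters of other actin regulators and 2 of 33 of other adhesion genes. It was present in 1 of 10 promoters of smooth muscle contractile genes and 1 of 12 of dissociation response genes. Inside the infarct the 4 genes did not form a block: Vcl and Arpc4 were 2.24 and 1.33 higher in Postn-traced cells, while Myl6 differed by 0.86 and Actg1 by -0.43. At like gene number Vcl and Arpc4 turned to -0.12 and -1.44.

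Monomer-binding genes were abundant, apart from Cap1. Tmsb4x and Tmsb10 encode the thymosins that hold actin monomers in reserve, and Pfn1 encodes profilin, which hands monomers to growing ends. Tmsb4x ran from 7.74 through 11.66 to 13.32 in Postn-traced cells and from 7.15 through 11.24 to 12.43 in Postn-negative cells, and 9 Postn-traced cells lay above every Postn-negative cell. The bulk of both classes overlapped, with a difference of means of 0.77, and those of Tmsb10 and Pfn1 were 0.54 and 0.47. These 3 differences were 0.05, 0.20 and -2.48 at like gene number. Tmsb4x exceeded Tmsb10 in 167 cells of all classes, by a median of 2.04 log2 units of TPM. Cap1, a cyclase-associated protein that recycles monomers, had the largest difference of the role, with means of 2.74 (SD 2.81) in Postn-traced and 0.52 (SD 1.44) in Postn-negative cells. It was found in 14 of 27 and 3 of 24 cells, and its values ran from 0.00 through 2.87 to 7.76 and from 0.00 through 0.00 to 4.92. The difference of 2.22 shrank to 0.25 at like gene number. Between activated and resident Tcf21-traced cells Pfn1 was 1.16 higher, and 0.08 at like gene number. It was also 1.28 higher in activated than in resident Postn-negative cells (1.25 at like gene number, -0.22 on the linear scale). Resident Tcf21-traced minus resident Postn-negative gave 1.08 for Pfn1 (1.07 at like gene number, -0.67 on the linear scale, -0.57 with medians over cells), while Postn-traced minus resident Tcf21-traced went from 0.67 to -2.30 at like gene number.

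The filament turnover genes were mixed. Dstn and Cfl1 encode destrin and cofilin, which sever old filaments, and they were 1.30 and 1.13 higher in Postn-traced than in Postn-negative cells. Dstn ran from 0.00 through 9.04 to 10.39 in the former and from 0.00 through 8.42 to 10.98 in the latter, and Cfl1 from 0.00 through 8.81 to 9.97 and from 0.00 through 7.66 to 9.78. These ranges overlapped, the difference of Dstn was 0.01 on the linear scale, and at like gene number it was 0.00 for Dstn and -0.07 for Cfl1. Dstn and Cfl1 stood nearly level over all cells, with a median difference of -0.04 log2 units of TPM. Activated minus resident, Cfl1 gave -1.52 in Postn-negative cells, from means of 7.06 and 8.58, and 1.42 in Tcf21-traced cells. These were -1.28 and 0.10 at like gene number, and -0.92 and 0.43 on the linear scale. Wdr1, the cofilin partner AIP1, ran from 0.00 through 1.88 to 5.94 in resident Postn-negative cells, and 11 of 24 activated Postn-negative cells lay above all of them. Its difference there was 2.46, and it was 3.04 higher in resident Tcf21-traced than in resident Postn-negative cells, so the low class was the resident Postn-negative one. The coronins Coro1b and Coro1c, which help take branches apart, were found in 52.4% and 37.8% of all cells, both together in 41. Inside the infarct they differed by 0.32 and -0.29, and by -0.67 and -1.98 at like gene number. Cotl1, a coactosin-like filament binder, was found in 6 of 27 Postn-traced and 4 of 24 Postn-negative cells.

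Capping was the role with the largest median difference inside the infarct, 2.48 over its 3 members. Capzb and Capza2 encode subunits of the protein that closes the growing end of the filament, and Capg encodes a gelsolin relative with the same task. Capzb ran from 0.00 through 8.06 to 11.37 in Postn-traced cells, from 0.00 through 3.93 to 9.82 in Postn-negative cells and from 0.00 through a median of 0.00 to 7.11 in resident Tcf21-traced cells. The activated cells reached higher, yet cells without Capzb were found in each class. It was above 5 TPM in 24 of 27 Postn-traced cells (88.9%, 70.8 to 97.6), 33 of 44 activated Tcf21-traced cells (59.7 to 86.8%) and 4 of 17 resident Tcf21-traced cells (23.5%, 6.81 to 49.9). Both activated intervals lie clear of the resident one, but how many of all genes kept would do so was not counted. The difference from resident Tcf21-traced cells was 5.03 for Postn-traced and 3.71 for activated Tcf21-traced cells, the largest of any member in each comparison, and at like gene number it was 3.34 and 1.71. Among resident cells 5 of 12 Postn-negative ones held Capzb (15.2 to 72.3%), an interval that overlaps that of the Tcf21-traced ones. Resident Tcf21-traced minus resident Postn-negative gave -1.62 from means of 1.57 and 3.19, and 0.00 with medians over cells. Capg was 2.69 higher in Postn-traced than in Postn-negative cells, found in 21 of 27 and 10 of 24, and 1.93 at like gene number. In Tcf21-traced cells it went the other way at -0.86 (-3.29 at like gene number). Capza2 was 0.93 higher inside the infarct and 1.91 higher in activated than in resident Tcf21-traced cells, which turned to -0.39 at like gene number and 0.10 on the linear scale.

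**Figure D4:**
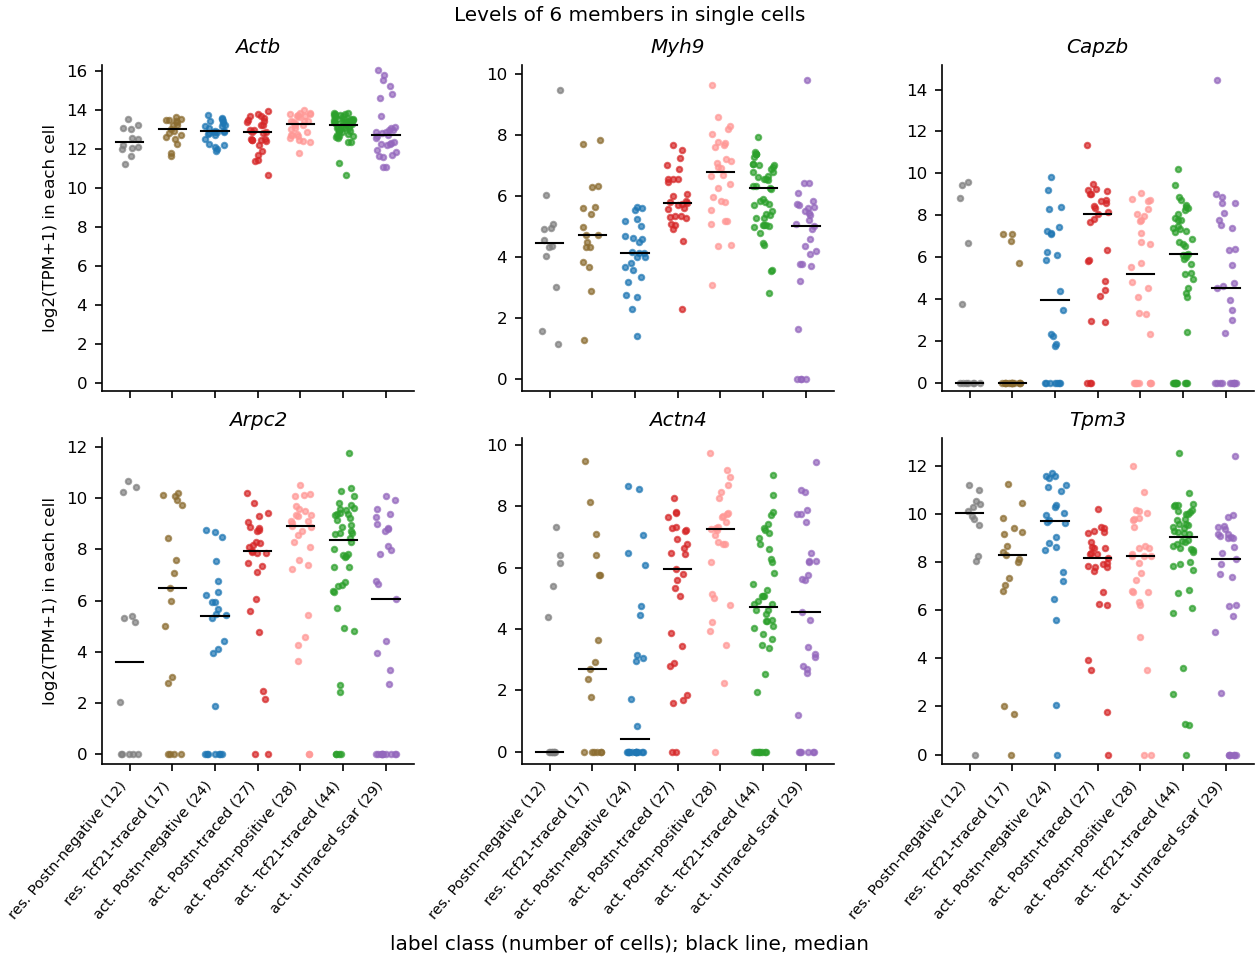
Each point is a cell and each black line a class median, for 6 members in the 7 classes of at least 12 cells, with log2(TPM+1) on the vertical axis. Actb is far above 0 in every cell, Myh9 sits lower in activated Postn-negative cells (median 4.12) than in Postn-traced cells (5.77), and Capzb has its median at 0.00 in both resident classes. Arpc2 and Actn4 have many cells at 0, and Tpm3 is high in both Postn-negative classes.

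More subunits of the Arp2/3 complex, the machine that starts branches, were found per cell in most activated classes than in the larger resident ones. Of its 8 member genes the median cell held 6 above 5 TPM in both traced activated classes and in untraced Postn-positive cells, 5 in scar cells and 4 in resident Tcf21-traced, resident Postn-negative and activated Postn-negative cells. At least 6 were found in 18 of 27 Postn-traced, 30 of 44 activated Tcf21-traced, 16 of 28 activated Postn-positive, 12 of 29 scar, 5 of 24 activated Postn-negative and 4 of 17 resident Tcf21-traced cells. The median number of genes above 5 TPM was 3643, 3134 and 3280 in the classes with a median of 6 subunits. It was 3177 in scar cells and 2264, 2092 and 2342 in the classes with 4. No such count was made for other genes, so these counts do not show whether the subunits differ from genes at large. The part of gene number in them was not tested. Arpc2, a core subunit, ran from 0.00 through 7.95 to 10.21 in Postn-traced and from 0.00 through 5.38 to 8.76 in Postn-negative cells, and 8 Postn-traced cells lay above every Postn-negative one. Its difference of 2.84 was the largest of any member in that comparison, and it became -0.68 at like gene number. At the other end of the role stood Actr2, the Arp2 subunit itself, at -0.89 (-4.17 at like gene number).

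Between activated and resident Tcf21-traced cells 6 of the 7 kept subunits were more than 1 higher, with a role median of 2.06, where 44.1% of all genes kept were. At like gene number 4 of the 7 were, where 22.9% of all genes kept were. On the linear scale none was, where 26.6% of all genes kept were, and Arpc4 was the highest at 0.79. Arpc4 led at 3.17, with means of 7.22 (SD 1.92) and 4.05 (SD 3.75), and was found in 42 of 44 (95.5%, 84.5 to 99.4) and 9 of 17 cells (52.9%). The 95% intervals did not meet, though how often that holds over all genes kept was not counted. The difference was 1.16 at like gene number. The pair Arpc1a and Arpc1b, alternative forms of the same subunit, split: Arpc1a was 2.06 higher and Arpc1b -1.02. That split was also seen in Postn-traced against resident Tcf21-traced cells, where Arpc1a was more than 1 higher and Arpc1b at -1.66. At like gene number Arpc1a stayed more than 1 higher in both and Arpc1b was at -2.18 and -2.38, while on the linear scale Arpc1a differed by only 0.21 and 0.06. The resident classes differed in the opposite sense, with -1.27 and 1.61 for Tcf21-traced minus Postn-negative, and activated minus resident Postn-negative cells gave -0.27 and 0.01. Both comparisons with the split use the same 17 resident cells, in which Arpc1a was found in 5 and Arpc1b in 13. Over all cells 68 held both forms, 18 held Arpc1a alone and 57 held Arpc1b alone. Actr3, the Arp3 subunit, was found in 13 of 24 activated and 2 of 12 resident Postn-negative cells and differed by 3.38, the largest member difference there. 10 of the activated cells lay above every resident one, and at like gene number the difference was 2.47. Arpc3, which missed the filter, was found in 9 of 27 Postn-traced cells and in 0 of 17 resident Tcf21-traced cells, a count that allows a share of up to 19.5%.

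**Figure D5:**
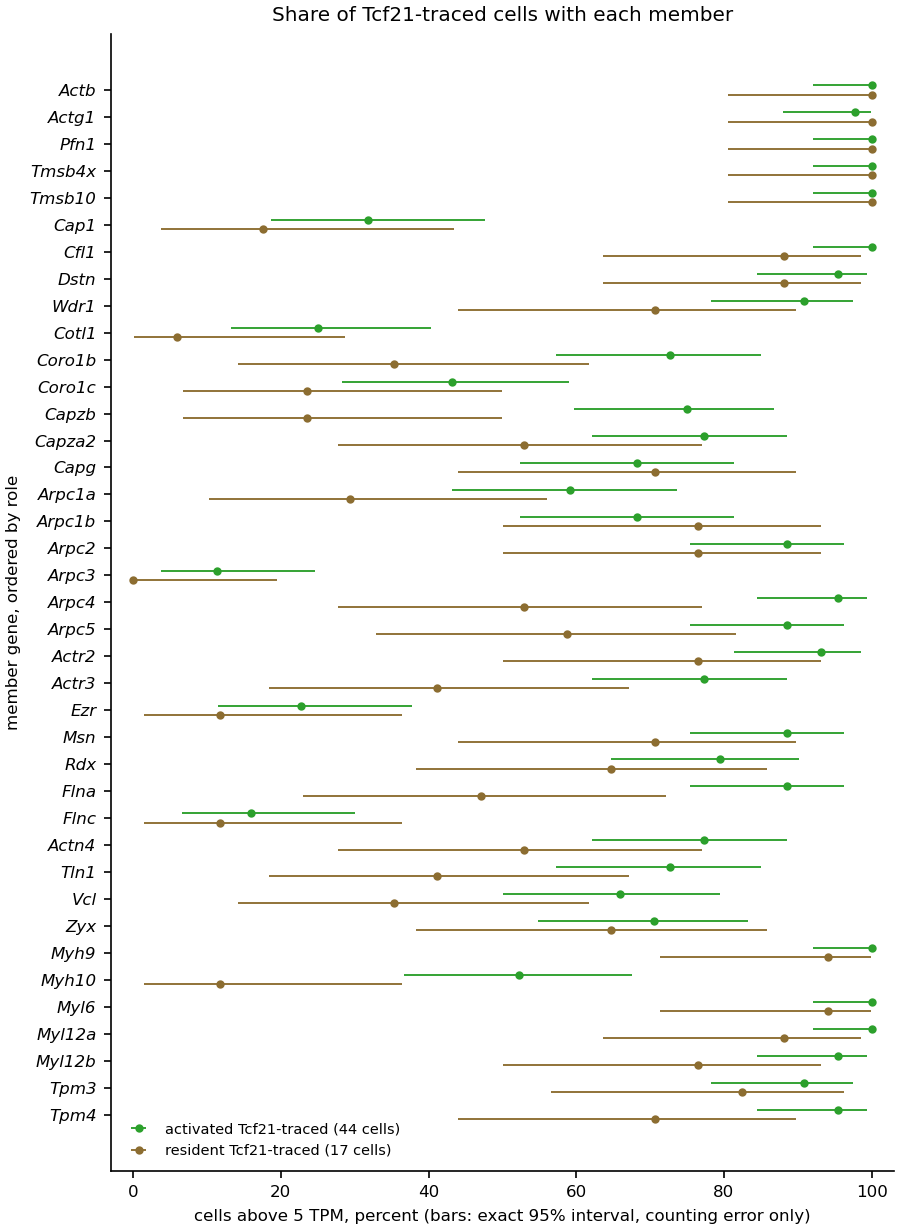
Points give the percentage of cells above 5 TPM for each of the 39 members (vertical axis, by role) in 44 activated (green) and 17 resident (brown) Tcf21-traced cells, and bars give exact 95% intervals for counting error. The bars of Capzb, Arpc4, Flna and Myh10 do not meet, with the activated share the higher in each, and those of the other 35 members do. The same count was not made over all genes kept, so it does not show whether members differ from genes at large.

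The membrane linkers ezrin, radixin and moesin (Ezr, Rdx, Msn) tie filaments to the plasma membrane, and ezrin was the least common here. Msn was found in 77.8% of all cells, Rdx in 72.4% and Ezr in 22.2%, and in the median cell Ezr minus Msn was -5.19 log2 units of TPM, Ezr minus Rdx -4.32 and Msn minus Rdx 0.42, with Msn the higher in 100 cells of all classes. Inside the infarct Msn was 0.98 higher in Postn-traced cells, ranging from 0.00 through 6.52 to 9.94 against 0.00 through 4.94 to 9.58, and Rdx differed by -0.80, ranging from 0.00 through 5.88 to 9.73 against 0.00 through 7.86 to 10.62. Both pairs of ranges overlapped, neither passed 1 log2 unit, and at like gene number they were -0.58 and -0.80. Ezr was found in 5 of 12 resident Postn-negative, 9 of 27 Postn-traced, 2 of 17 resident Tcf21-traced and 3 of 24 activated Postn-negative cells. Rdx was 2.58 higher in activated than in resident Postn-negative cells (2.25 at like gene number, 1.01 on the linear scale). In capture Nov4 it was lower in Tcf21-traced than in Postn-positive cells at -1.86 (-0.96 on the linear scale).

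Among crosslinkers and adhesion genes, Actn4 and Vcl stood out in Postn-traced cells. Actn4 encodes alpha-actinin 4, a filament bundler, and ran from 0.00 through 5.95 to 8.26 in Postn-traced and from 0.00 through 0.43 to 8.64 in Postn-negative cells. The ranges were alike and what differed was how many cells had it, 22 of 27 and 10 of 24. The difference was 2.77, or 0.86 on the linear scale and 2.43 at like gene number. Vcl, vinculin, was 2.24 higher and found in 18 of 27 and 10 of 24 cells, with -0.12 at like gene number. Flnc, the muscle filamin, had the lowest difference of the role, -0.87, from 4 of 27 and 6 of 24 cells, and ran from 0.00 through 0.00 to 6.62 and from 0.00 through 0.00 to 6.34. Flna, the broadly expressed filamin that crosslinks filaments into a gel, was found in 102 cells without Flnc, and Flnc in 6 without Flna. Flna differed by 0.20 inside the infarct and by -1.82 at like gene number. It was 2.17 higher in activated than in resident Tcf21-traced cells, found in 39 of 44 (88.6%, 75.4 to 96.2) and 8 of 17 (47.1%, upper limit 72.2), with 1.76 at like gene number and 0.64 on the linear scale. Tln1, talin, which links integrins to actin, was 1.84 higher there, with 2.46 at like gene number and 0.06 on the linear scale. Zyx, zyxin, a sensor of tension at adhesions, differed by -0.01 there (-1.48 at like gene number) and was 2.92 higher in activated than in resident Postn-negative cells, 17 of 24 against 5 of 12 (2.58 at like gene number). In capture Nov4 Actn4 and Zyx were lower in Tcf21-traced than in untraced Postn-positive cells, at -2.41 and -1.91 (-1.48 and -0.74 on the linear scale). Actn4 was found in all 19 of the latter and 34 of 44 of the former.

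Of the non-muscle myosin II genes Myh9 separated the classes of the infarct most. It encodes the main heavy chain, the motor that pulls on stress fibres, and ran from 2.29 through 5.77 to 7.67 in Postn-traced and from 1.40 through 4.12 to 5.66 in Postn-negative cells. Of the 27 Postn-traced cells 16 lay above every one of the 24 Postn-negative cells, the most for any member in that comparison, and nearly all cells of both classes held the gene (26 of 27 and 22 of 24). The means of 5.85 (SD 1.08, n = 27) and 4.08 (SD 1.09, n = 24) differed by 1.76, more than the SD between cells of either class. The difference was 1.75 on the linear scale and 1.59 at like gene number, where it rests on 5 Postn-traced cells. Myh9 did not separate activated from resident cells in the same way. Its class medians were 4.47 and 4.74 in resident Postn-negative and Tcf21-traced cells, 4.12 in activated Postn-negative cells, 6.25 in activated Tcf21-traced cells and 6.81 in activated Postn-positive cells, and their ranges overlapped. Activated minus resident was 1.03 for Tcf21-traced cells (0.42 at like gene number, 0.59 on the linear scale) and -0.38 for Postn-negative cells (-0.42 and -1.92). In capture Nov4 the Tcf21-traced class was lower than the Postn-positive one at -1.13 (-0.65 at like gene number), and 4 of 19 Postn-positive cells lay above every Tcf21-traced cell.

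Myh10, the second heavy chain, was found in 92 cells of all classes and all but 2 of those held Myh9 too. Both heavy chains were found together in 90 cells. Myh10 was 1.38 higher in Postn-traced than in Postn-negative cells (-3.04 at like gene number), with values from 0.00 through 4.95 to 8.14 against 0.00 through 0.91 to 7.23, which overlap. It was above 5 TPM in 23 of 44 activated (52.3%, 36.7 to 67.5) and 2 of 17 resident (11.8%, 1.46 to 36.4) Tcf21-traced cells, and the difference of means was 1.28 at like gene number and 0.44 on the linear scale. The light chains were more abundant. Myl6, the essential light chain, ran from 7.53 through 11.64 to 13.41 in activated and from 0.00 through 10.28 to 11.99 in resident Tcf21-traced cells, and 11 of the 44 activated cells lay above every resident one. It was 2.04 higher in the activated class, 1.21 on the linear scale and 2.36 at like gene number. Myl12a and Myl12b encode regulatory light chains so alike that reads may not have been told apart, and their separate values are uncertain. Myl12a ran from 6.61 through 9.67 to 11.68 in Postn-traced and from 0.00 through 10.35 to 11.36 in Postn-negative cells, and Myl12b from 0.00 through 9.62 to 11.20 and from 0.00 through 9.04 to 11.39. The classes overlapped for both, with differences of 0.02 and 1.74 (0.08 and 1.58 at like gene number, -0.05 and 0.40 on the linear scale). Myl12a was 3.02 higher in activated than in resident Postn-negative cells, the same to within 0.05 at like gene number and 0.86 on the linear scale.

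Tropomyosins coat filaments and decide which proteins reach them, and the pair measured here differed in opposite directions inside the infarct. Tpm3 was the 1 member more than 1 log2 unit lower in Postn-traced than in Postn-negative cells. It ran from 0.00 through 8.17 to 10.20 in Postn-traced and from 0.00 through 9.70 to 11.72 in Postn-negative cells, and 9 Postn-negative cells lay above every Postn-traced one. The gene was found in nearly all cells of both classes, 25 of 27 and 22 of 24, so the difference of -1.47 was one of level. It was -1.83 on the linear scale and -2.87 at like gene number. Tpm4 ran from 1.07 through 8.69 to 11.49 and from 0.00 through 8.54 to 10.82, which overlap, and differed by 0.82. Among resident cells Tpm3 was again lower in the Tcf21-traced than in the Postn-negative class, at -1.69, and Tpm4 went the same way at -0.95 (-1.06 at like gene number, 0.40 on the linear scale). Between activated and resident Tcf21-traced cells Tpm4 was 2.59 higher and Tpm3 0.85, the former 0.51 at like gene number and -0.04 on the linear scale.

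The activated-resident comparisons that share no cells, Tcf21-traced and Postn-negative, had 11 members more than 1 higher in common: Pfn1, Wdr1, Capza2, Arpc4, Arpc5, Actr3, Rdx, Flna, Myh10, Myl6 and Myl12a. That is 28.9% of the members beside 13.9% of all genes kept. Both take their resident cells from capture Jul24, so capture and activation cannot be told apart. Of these 11, Arpc4, Actr3, Flna and Myh10 were also more than 1 higher in both comparisons at like gene number, with 1.16 and 1.99 for Arpc4, 1.57 and 2.47 for Actr3, 1.76 and 1.21 for Flna and 1.28 and 1.84 for Myh10. These 4 are 10.5% of the members, beside 6.85% of all genes kept. On the linear scale no member passed in both comparisons, where 11.3% of all genes kept did. The 4 stayed under 1 there for Tcf21-traced cells (0.79, 0.51, 0.64 and 0.44 in that order), and Postn-negative cells gave 0.88, 5.29, 1.18 and -1.34.

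Inside the infarct some genes of neighbouring functions, from lists, gave larger differences than any member. Of 46 other actin regulators kept (of 69 listed) 20 were more than 1 higher and 2 lower in Postn-traced than in Postn-negative cells, with a median of 0.84 beside 0.73 for all genes kept, of which 39.6% were higher and 5.40% lower. Palld, palladin of stress fibres, was 4.03 higher, Cnn2, a calponin, 3.78 and Capza1, the third capping subunit gene, 3.54. Gsn, gelsolin, which severs and caps filaments, had the largest difference of all of them in the opposite direction, -5.60, with means of 8.42 and 14.03, and Ssh2, a cofilin phosphatase, had -2.13. Gsn was also lower in activated than in resident Tcf21-traced cells, at -3.79. Of 29 other adhesion genes kept (of 37) 17 were more than 1 higher and 1 lower, with a median of 1.04. In activated against resident Tcf21-traced cells the medians of these 2 lists were 0.78 and 0.87, below the 1.29 of the members. Inside the infarct Actn1, alpha-actinin 1, was 4.78 higher, Cdh2, N-cadherin, 3.45 with no Postn-negative cell above 5 TPM, and Ctnnb1, beta-catenin, 2.99, while Lims2 had -1.88. Actn1 was also the top adhesion gene of the Tcf21-traced comparison at 4.93, found in 35 of 44 activated and 5 of 17 resident cells.

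Smooth muscle contractile genes, which myofibroblasts share with smooth muscle, were higher for the most part in the same comparisons. Of the 6 kept (of 13) 4 were more than 1 higher in Postn-traced than in Postn-negative cells, median 3.48, led by Tagln (4.17), Tpm2 (3.89) and Myl9 (3.67), with Smtn the lowest at -0.72, and 5 were in activated against resident Tcf21-traced cells, median 1.60, where 39.6% and 44.1% of all genes kept were. All 6 smooth muscle cell type markers are in the table, and their summed TPM had a median of 257 in Postn-traced cells, with Tagln the most abundant, 129 in activated Tcf21-traced cells, 4.34 in activated Postn-negative and 1.30 in resident Tcf21-traced cells. Cells holding at least 3 of them numbered 3 of 27, 10 of 44, 0 of 24 and 0 of 17. Of 6 pericyte markers only 1 was kept. It was 2.16 higher inside the infarct and 1.85 in Tcf21-traced cells, and the 1 endothelial marker kept gave -0.41 and -1.22. Rgs5 and Kcnj8, also on the pericyte list, were at 0 in every Postn-traced cell. At least 3 pericyte markers were found in 0 of 27 Postn-traced and 0 of 24 activated Postn-negative cells. The counts were 1 of 44 activated and 0 of 17 resident Tcf21-traced cells. At least 3 myeloid markers were found in 1 of 12 resident Postn-negative cells. Without the cells that held 3 or more markers of another type the member medians were 0.65 inside the infarct and 1.15 for Tcf21-traced cells. The list of members higher in both activated-resident comparisons then held 10 (26.3%, all genes 10.5%), with Capzb but without Pfn1 and Wdr1. Within classes the members' mean and Acta2, smooth muscle actin, had rho of 0.62 over 27 Postn-traced, 0.56 over 44 activated Tcf21-traced, 0.59 over 28 activated Postn-positive and 0.55 over 24 activated Postn-negative cells, against 0.10 over 29 scar, -0.24 over 12 resident Postn-negative and -0.34 over 17 resident Tcf21-traced cells, and each of these may share gene number. Of 12 dissociation response genes kept (of 14), which enzymatic digestion can induce, 9 were more than 1 lower in activated than in resident Tcf21-traced cells (median -2.26, Egr1 at -2.84), 5 were lower in Postn-traced than in Postn-negative cells (median -0.84, Ier2 at -2.83) and 1, Ier3, was higher in each. Of all genes kept 5.54% and 5.40% were lower by that much. Postn-traced minus resident Tcf21-traced had 10 of the 12 lower (5.42% of all genes), and Postn-negative cells, activated minus resident, 7 (10.3%). The part of the dissociation response in the member differences was not tested.

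Rank correlations between members from cell to cell were mostly weak. The median rho over all 703 pairs of kept members was 0.16 in 27 Postn-traced cells, 0.10 in 44 activated Tcf21-traced cells, 0.04 in 24 activated Postn-negative cells and 0.29 in 29 scar cells, and weak values in data this sparse are no finding. The strongest pair of Postn-traced cells was Actb with Myh9, at 0.80, and it stood at 0.78 in resident Postn-negative, 0.60 in activated Tcf21-traced, 0.48 in activated Postn-positive, 0.42 in activated Postn-negative, 0.35 in resident Tcf21-traced and -0.06 in scar cells. Actb itself had a rho of 0.34 with gene number in Postn-traced cells. These coefficients describe cells of 1 class, which share a capture except for the Postn-positive class.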

How the data were processed

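Single cells were sequenced by the authors and their reads aligned with Bowtie 1.0.0 and quantified with eXpress 1.5.1 on mm10. The deposited table holds log2(TPM+1) by the authors, 1 column per cell, scaled within each cell, and back-converted TPM summed to 999257 to 1000000 per cell. The members and lists were chosen with earlier results of these data known. Class values were means of log2(TPM+1) over cells, and a member counted as higher or lower when class means differed by more than 1 log2 unit. Genes were kept when above 5 TPM in at least 20% of all cells. Named were, for each role, the largest difference in either direction inside the infarct, and paralog pairs, and up to 3 rises and 3 falls per list. Genes described beyond that rule were chosen after their values were seen. Alternatives were a pseudocount of 0.1 or 5, class values taken as cell medians or from linear means, centring each cell on its median, other filters, other detection levels, and leaving out cells with few genes or with markers of another type. The code was tested on simulated data. Tables were made in pandas 2.3.3 with numpy 2.4.6, intervals in scipy 1.17.1 and plots in matplotlib 3.10.9, all under Python 3.11.15.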

Additional observations from a re-analysis of the deposited data

How the results depend on the processing

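Of 61 recomputed member medians 52 stayed within 0.5 log2 units of the main value and 9 did not, of 61 counts of members more than 1 higher 46 stayed within 1.5 times and 15 did not, and of 1911 member differences 1272 stayed within 0.5, 591 did not and 48 changed sign after passing 1 log2 unit. The causes were not tested. The comparisons are written as infarct (Postn-traced minus Postn-negative), Tcf21-traced (activated minus resident), Postn-traced minus resident, Postn-negative (activated minus resident), Nov4 (Tcf21-traced minus Postn-positive) and resident (Tcf21-traced minus Postn-negative).

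With means on the linear scale the infarct median was -0.03 with 7 members higher against 20.7% of all genes. There Arpc4 was -0.16 and Arpc5 -0.06. The Tcf21-traced median was 0.35 with 3 members higher, against 26.6% of all genes. There Wdr1 was -0.46, Coro1b -0.78, Msn -0.05, Actn4 -0.26, Vcl -0.56, Myl12b -0.51 and Tpm4 -0.04. The Postn-traced minus resident median was 0.01 with 4 higher, against 26.4% of all genes. There Capza2 was -0.03, Arpc2 -0.18, Actr3 -0.30, Vcl -0.10, Myl12b -0.42 and Tpm4 -0.14. In Postn-negative cells 8 members were higher against 33.1% of all genes, Pfn1 was -0.22, Capza2 -0.40 and Myh10 -1.34. In Nov4 2 were higher against 17.9% of all genes, and in resident cells Pfn1 was -0.67, Arpc2 -0.04 and Rdx -0.19.

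With medians over cells Myl12b was -0.47 in the Tcf21-traced comparison, Myl12a -0.20 and Myl12b -0.45 in Postn-traced minus resident, Myl6 -0.04 in Postn-negative cells, and Pfn1 -0.57 and Cfl1 0.07 in resident cells. In Nov4 3 members were higher, against 13.1% of all genes. A pseudocount of 0.1 gave medians of 1.80 for Tcf21-traced and 1.56 for Postn-traced minus resident. In Nov4 it gave 2 members higher, against 16.4% of all genes, and a pseudocount of 5 gave 0, against 3.95%. Centring each cell on its median gave 1.20 with 23 higher in the infarct, where 60.1% of all genes were. It gave 0 higher in Nov4, where 4.78% of all genes were. Leaving out cells with markers of another type gave 2 higher in Nov4, against 12.4% of all genes.

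With cells of 2000 to 3000 genes, a setting chosen after seeing the data, the infarct median was -0.28 with 7 higher, against 21.5% of all genes. There Cfl1 was -0.07, Arpc2 -0.68, Arpc3 -0.32, Arpc4 -1.44, Vcl -0.12 and Myh10 -3.04. The Tcf21-traced median was 0.19 with 11 higher, against 22.9% of all genes. There Wdr1 was -0.30, Capza2 -0.39, Arpc2 -0.15, Actn4 -0.22 and Myl12a -0.17. The Postn-traced minus resident median was -0.58 with 5 higher, against 22.1% of all genes. There Cap1 was -0.50, Arpc2 -3.42, Arpc4 -2.52, Arpc5 -0.45, Actr3 -0.94, Ezr -0.52, Flna -1.57 and Myh10 -1.47. Myl6 was -0.15 in Postn-negative cells, 8 members were higher in Nov4 against 25.6% of all genes, and Cfl1 was 0.21 in resident cells.

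The unit of replication limits every value: cells of a class come from 1 capture in most cases and from unnamed mice, so no spread between animals is known. The depth of each cell is unknown, so a 0 in a cell does not show that the RNA was absent.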

Other observations

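Untraced scar cells of capture Nov11, which stand in no comparison, held some extremes of the members but not all. The lowest Actb, 10.67, was in an activated Tcf21-traced cell, and the highest Tmsb4x, 14.71, in an activated Postn-positive cell. Of the 29 scar cells 5 had between 141 and 264 genes above 5 TPM and 2 to 7 members among them. Actb reached 16.02 in the one with 141 genes, and the members took up to 9.43% of its TPM in another with 264 genes, against a median of 2.09% for the class. Tmsb4x was above 5 TPM in 23 of 29 scar cells (79.3%, lower limit 60.3) and in every cell of the other classes of at least 12 cells. Across the scar cells Actb and gene number had a rho of -0.59.

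The single resident Postn-positive cell had 2397 genes, 29 members above 5 TPM and 4.49% of its TPM in members. Its Actb was 13.69, its Myl6 12.98 and its Actr3 10.15, and Wdr1 and Arpc5 were listed at 0.00.

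Postn-positive cells without the tracer differed between captures. Myh9 had a mean of 4.82 in the 6 cells of Jul29, 7.11 in the 19 of Nov4 and 7.15 in the 3 of Nov11, and Pfn1 5.81, 9.33 and 10.51. Their median gene numbers were 2234, 3361 and 5179. Acta2 was above 5 TPM in 0 of the 6 cells of Jul29, which allows a share of up to 45.9%, and in 11 of the 19 cells of Nov4.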
